A study of Mus musculus with 11 samples.

Results

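The 34 genes described here are glycolytic enzymes, glucose transporters, regulators of pyruvate and lactate use, the hypoxia-inducible factor subunit *Hif1a*, its hydroxylases and other genes that this factor is known to induce. They were chosen by name for their function and matched by symbol to the Ensembl identifiers of the count files, which list 38561 genes, and all 34 were among the 17317 genes with enough counts to be tested. RNA sequencing was performed on facial process explants (mandibular and maxillary arches with the nasal processes) of mouse embryos at embryonic day 10.5. There were 2 wild-type (wt) libraries and 3 libraries each of *Rspo2* homozygous mutants (*Rspo2*KO), *Wnt9b* homozygous mutants (*Wnt9b*KO) and double homozygous mutants (DKO), all of mixed strain and none treated. RSPO2 is a secreted R-spondin that potentiates WNT signalling at the cell surface, and WNT9B is a WNT ligand. The mutations are carried in every cell of the embryo. Each explant held whole facial processes, so that more cells of one kind and more RNA per cell cannot be told apart. Whether a library was made from 1 embryo or from pooled embryos is not given in the sources used here, so p-values measure only the spread between these libraries.

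Glycolysis turns glucose into pyruvate in the cytosol. Its first steps, from the hexokinases to triosephosphate isomerase, spend ATP, and its later steps, from *Gapdh* to pyruvate kinase, yield ATP and NADH. Lactate dehydrogenase then converts pyruvate to lactate, or pyruvate enters mitochondria and is used by the pyruvate dehydrogenase complex. In low oxygen the HIF1A protein escapes hydroxylation by the EGLN prolyl hydroxylases, pairs with ARNT, binds a short core motif near its target genes and raises the transcripts of most glycolytic enzymes together with *Vegfa*, *Bnip3*, *Egln3* and others. HIF1A is set mainly at the protein level, which transcript counts do not measure.

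The letters of the HIF core motif (ACGTG or GCGTG, read on both strands, overlaps counted) were frequent in the promoters of these genes. RefSeq promoter windows (GRCm38.p6, 250 bases before to 50 bases after a transcription start) were found for 32 of the 34 genes. Of these 32 genes, 29 (90.6%) held a match in at least 1 window, against 46.7% of the 27025 genes in the table, and per window the share was 75.5% of 49 windows against 43.8% of 32851 windows. The genes in the table were not limited to those tested here, and no set matched for level or base content was compared. Such a match is a description of letters and not a binding site. The bases upstream of the start are printed for 3 genes taken as textbook HIF targets (*Ldha*, *Pgk1*, *Bnip3*) and for *Eno1*, which was added after its values were seen because it changed most. *Vegfa* had been planned but is not printed, and 1 of its 2 windows held a match. *Ldha* has 2 windows and *Eno1* has 3, and the window with the most matches in its 250 upstream bases was chosen, so these match counts are maxima. Each runs 5′ to 3′ on the gene's strand, with the motif letters in capitals. The windows are chr7:46845554-46845803 (plus strand) for *Ldha*, chrX:106186850-106187099 (plus strand) for *Pgk1*, chr7:138909507-138909756 (minus strand) for *Bnip3* and chr4:150236947-150237196 (plus strand) for *Eno1*.
Ldha: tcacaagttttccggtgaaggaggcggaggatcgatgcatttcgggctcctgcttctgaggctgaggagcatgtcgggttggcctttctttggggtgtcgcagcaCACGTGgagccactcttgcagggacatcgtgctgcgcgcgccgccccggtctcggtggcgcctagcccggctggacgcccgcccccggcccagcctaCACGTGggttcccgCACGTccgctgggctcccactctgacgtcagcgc
Pgk1: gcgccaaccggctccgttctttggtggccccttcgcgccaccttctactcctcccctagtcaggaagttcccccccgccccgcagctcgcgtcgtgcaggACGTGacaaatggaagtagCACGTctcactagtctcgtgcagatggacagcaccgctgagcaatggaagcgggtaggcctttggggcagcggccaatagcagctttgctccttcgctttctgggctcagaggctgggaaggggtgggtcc
Bnip3: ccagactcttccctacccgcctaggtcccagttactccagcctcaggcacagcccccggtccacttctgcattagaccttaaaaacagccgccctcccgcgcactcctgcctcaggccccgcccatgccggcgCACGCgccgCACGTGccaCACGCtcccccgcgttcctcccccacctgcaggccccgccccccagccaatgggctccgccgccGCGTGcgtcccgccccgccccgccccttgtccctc
Eno1: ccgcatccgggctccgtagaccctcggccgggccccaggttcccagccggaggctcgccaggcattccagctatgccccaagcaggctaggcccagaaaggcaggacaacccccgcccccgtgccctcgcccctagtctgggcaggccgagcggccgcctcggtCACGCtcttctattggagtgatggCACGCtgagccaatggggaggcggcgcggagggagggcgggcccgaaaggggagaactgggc
The *Ldha* stretch holds 5 matches, the *Bnip3* stretch 5, the *Pgk1* stretch 2 and the *Eno1* stretch 2, where a palindromic CACGTG counts once for each strand.

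The libraries held between 11136166 and 18017344 counts in genes. *Rspo2* was at 14.8 and 16 CPM (counts scaled by library size after TMM correction) in wt, 6.59, 4.8 and 4.74 in *Rspo2*KO, 22.8, 2.86 and 18.1 in *Wnt9b*KO, and 4.17, 3.67 and 15.5 in DKO. The library labelled *Wnt9b*KO 2 was therefore low in *Rspo2* and the library labelled DKO 3 was at the wt level, against their labels, and the counts of changed genes among the 34 and in the neighbouring lists are also given without both. *Wnt9b* itself was not lower in the libraries labelled as its mutants (16.2 to 23.3 CPM in *Wnt9b*KO and 18.3 to 20.2 in DKO, against 10.8 and 13.4 in wt), and no value here shows which part of its transcript the allele leaves. *Xist*, the RNA of the inactive X, was at 679.6 CPM or more in every wt and DKO library and at 1.94 or less in every *Rspo2*KO and *Wnt9b*KO library. Sex therefore differs with genotype in the comparisons of wt with either single mutant and of DKO with either single mutant, and in the interaction sex and genotype cannot be told apart. By *Xist*, DKO against wt and *Wnt9b*KO against *Rspo2*KO set libraries of like sex side by side. The Y-linked *Ddx3y* was at 57.6 CPM or more in every *Rspo2*KO and *Wnt9b*KO library and at 1.07 and 0.121 CPM in wt. It was at 0.0587, 0.125 and 4.43 CPM in DKO, so the library labelled DKO 3 was not free of it. *Gapdh*, *Eno1*, *Pkm*, *Ldhb*, *Egln1* and *Ndrg1* were called lower in both comparisons of like sex, and *Hk1* was called higher in both. Of all tested genes, 27.5% were called in DKO against wt and 26% in *Wnt9b*KO against *Rspo2*KO. The share called in both was not counted. The 6 facial mesenchyme markers were all detected. They summed to 648.6 and 678.5 CPM in wt, 453.6 to 488.9 in *Rspo2*KO, 380.4 to 789 in *Wnt9b*KO and 477.8 to 591.5 in DKO. The 6 erythroid markers summed to 3940 to 5757 CPM in wt and *Rspo2*KO but 1740 to 2846 CPM in *Wnt9b*KO and DKO. The 5 forebrain and eye markers summed to 37.8 and 41.5 CPM in wt, 47.7 to 65.8 in *Rspo2*KO and 57.4 to 113 in *Wnt9b*KO and DKO, with all 5 called higher than wt in *Wnt9b*KO and 3 in DKO. The 6 neuron markers summed to 264 to 384 CPM in *Wnt9b*KO and to 447 to 598 CPM in the other genotypes. Of the muscle markers, *Myl7* and *Actc1* were called lower than wt in both *Wnt9b*KO and DKO. Small nuclear RNAs summed to between 352 and 420 CPM in wt and *Rspo2*KO and to between 70.1 and 82.7 CPM in *Wnt9b*KO and DKO. Several of these differences run with results below that set *Wnt9b*KO or DKO against wt or *Rspo2*KO. The part of any of them in the results was not tested.

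Compared with wt, *Rspo2*KO changed none of the 34 genes, whereas *Wnt9b*KO changed 11 and DKO changed 10. The 9 genes called in both were *Hk1* and *Pgk1*, which were higher, and *Gapdh*, *Eno1*, *Pkm*, *Ldha*, *Ldhb*, *Egln1* and *Ndrg1*, which were lower. Of these, *Eno1*, *Pkm*, *Ldhb* and *Egln1* passed in both in all 11 fits without 1 library. The share of all tested genes called in both comparisons was not counted. A gene was called changed when its adjusted p (edgeR's quasi-likelihood test on all 11 libraries, Benjamini-Hochberg over the 17317 genes) was below 0.05. In *Rspo2*KO, 0.0346% of all tested genes were called (6 genes), 3 members had an unadjusted p below 0.05 (*Pfkl*, *Slc2a3* and *Gpi1*, all lower), and DESeq2 also called 0. In *Wnt9b*KO, 11 of 34 members (32.4%) were called against 32.8% of all tested genes, with 3 higher (*Hk1*, *Hk2*, *Pgk1*) and 8 lower (*Gapdh*, *Eno1*, *Pkm*, *Ldha*, *Ldhb*, *Egln1*, *Ankrd37*, *Ndrg1*). In DKO, 10 of 34 (29.4%) were called against 27.5%, with 2 higher (*Hk1*, *Pgk1*) and 8 lower (*Pfkl*, *Gapdh*, *Eno1*, *Pkm*, *Ldha*, *Ldhb*, *Egln1*, *Ndrg1*).

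The share of members that changed was thus near that of all genes. Among genes with a mean of at least 10 CPM, a level that most members pass, the share was 0.0511% in *Rspo2*KO, 43.5% in *Wnt9b*KO and 37.9% in DKO, the latter 2 above that of the members. By direction, 16.8% of all tested genes were called higher and 16% lower in *Wnt9b*KO, and 14.3% and 13.1% in DKO. The median log2 fold change of the 34 genes was -0.15 in *Rspo2*KO, -0.045 in *Wnt9b*KO and -0.051 in DKO, beside 0.00 to 0.01 over all genes tested. The glycolysis and hypoxia genes did not move as 1 block, and the changes described below are those of single enzymes. Without the libraries labelled *Wnt9b*KO 2 and DKO 3, 0 genes were called in *Rspo2*KO, 9 in *Wnt9b*KO (*Pgk1* and *Ankrd37* no longer passed) and 11 in DKO (*Pgk1* no longer passed, *Hk2* and *Eno2* did). The shares of the latter 2 were 26.5% and 32.4%, beside 29.7% and 25.6% of all genes tested. The comparisons of *Wnt9b*KO and of DKO with wt share the same 2 wt libraries. Without wt replicate 1 or wt replicate 2 the counts of both comparisons fell, and the share of all tested genes that was called fell too. The remaining wt library was then assumed to vary like the other groups.

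**Figure D1:**
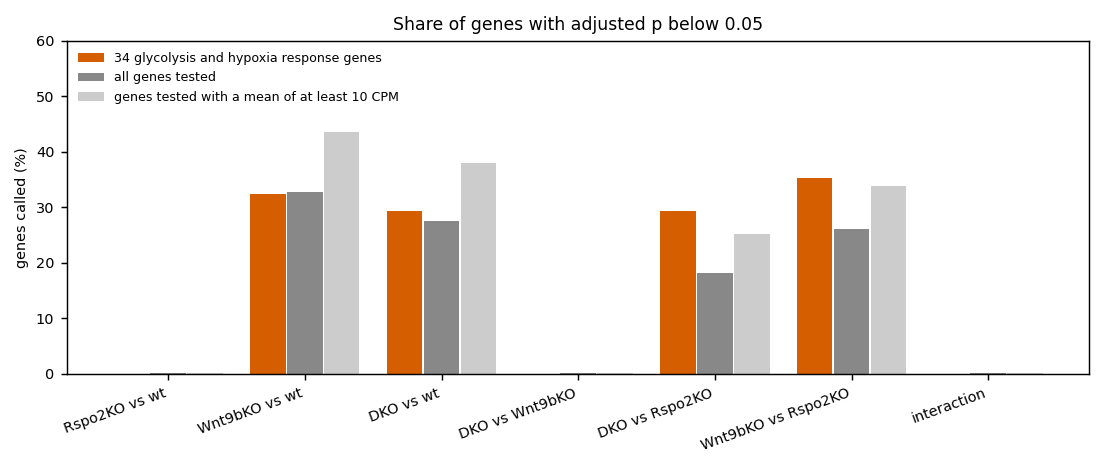
Percent of genes with an adjusted p below 0.05 (vertical axis) in each of the 7 comparisons (horizontal axis) for the 34 glycolysis and hypoxia response genes, for all 17317 genes tested, and for those with a mean of at least 10 CPM. The bars of the 34 genes stand at 32.4% and 29.4% for *Wnt9b*KO and DKO against wt, near the 32.8% and 27.5% of all genes, and at 0 for *Rspo2*KO against wt, DKO against *Wnt9b*KO and the interaction.

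**Figure D2:**
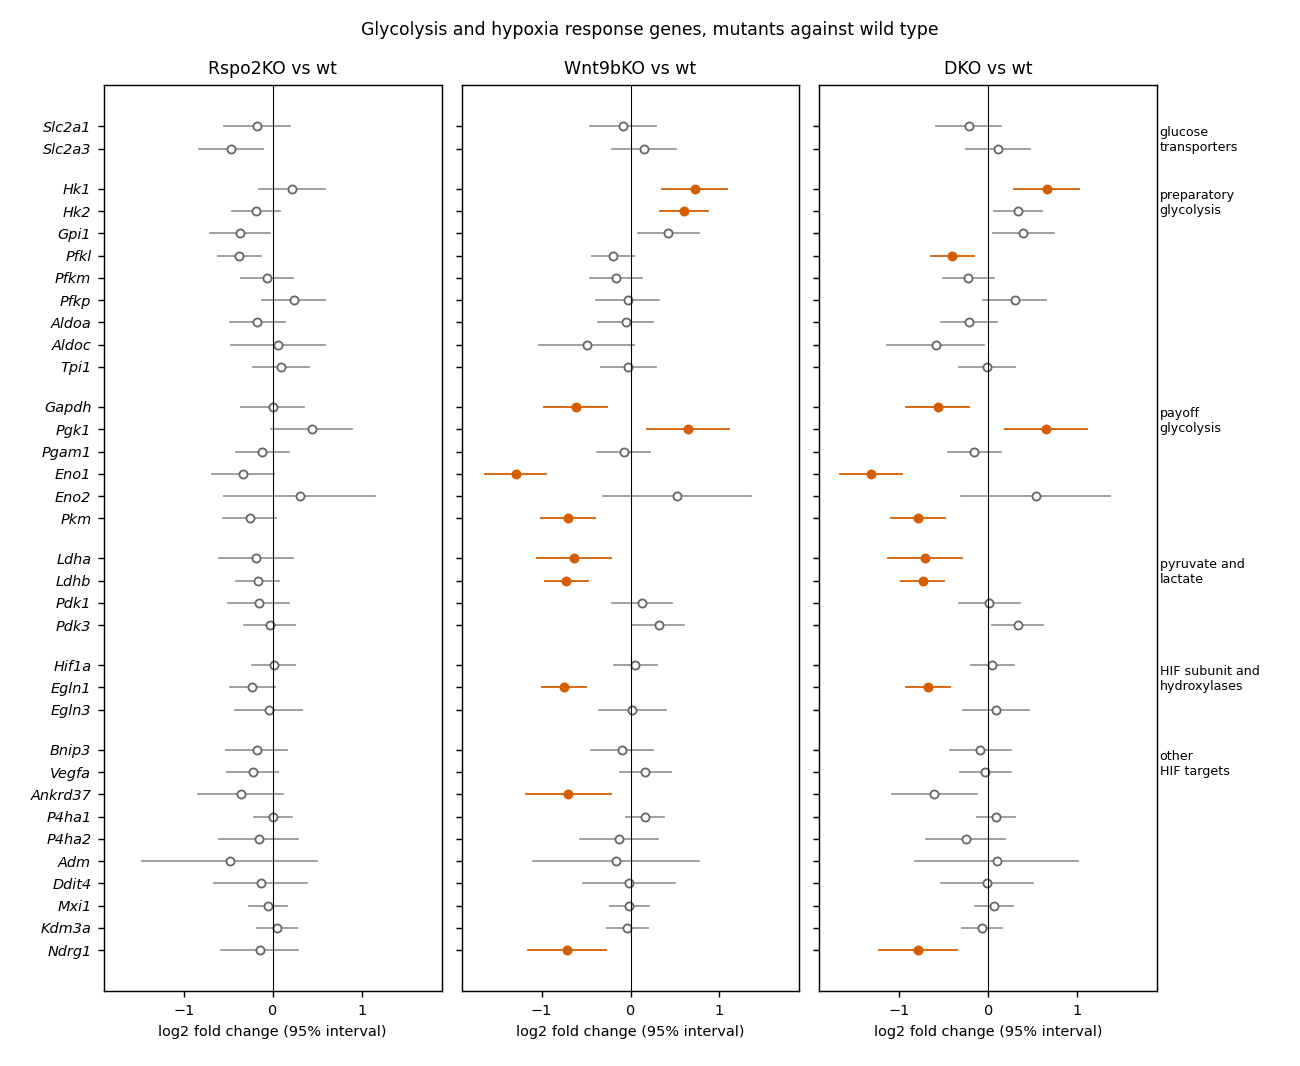
Fitted log2 fold change (horizontal axis, points) with its 95% interval (lines) for each of the 34 genes, grouped by role, in the 3 mutants against wt. Filled orange points have an adjusted p below 0.05. None is filled for *Rspo2*KO, and *Eno1* lies farthest to the left for *Wnt9b*KO and DKO, at -1.29 and -1.32.

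Of the glucose transporters, *Slc2a1* (GLUT1, the main carrier of glucose into most embryonic cells) stood at 185 and 164 CPM in wt, 138, 158 and 168 in *Rspo2*KO, 131, 215 and 148 in *Wnt9b*KO, and 151, 165 and 133 in DKO. The groups overlapped, and its log2 fold change against wt was -0.18 ± 0.17 (SE) in *Rspo2*KO, -0.08 ± 0.17 in *Wnt9b*KO and -0.22 ± 0.17 in DKO. *Slc2a3* (GLUT3, a high-affinity carrier) was at 67.1, 75.9 and 78.3 CPM in *Rspo2*KO, below the 102 and 103 CPM of wt and below every other library. That difference from wt did not pass the test (log2 fold change -0.47 ± 0.17, edgeR adjusted p = 0.293), although a fit with no filter on low counts called it. *Slc2a3* did differ between *Wnt9b*KO and *Rspo2*KO, by 1.54-fold (edgeR adjusted p = 0.00863).

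Among the preparatory enzymes, *Hk1* rose in both *Wnt9b*KO and DKO, and *Hk2* rose in *Wnt9b*KO. *Hk1* (hexokinase 1, which traps glucose as glucose 6-phosphate) was at 18.6 and 15.9 CPM in wt, 25.5, 16.9 and 17.9 in *Rspo2*KO, 32.5, 25.3 and 27.4 in *Wnt9b*KO, and 27.1, 27.6 and 26.7 in DKO. All libraries of *Wnt9b*KO and DKO lay above both wt libraries, and *Rspo2*KO 1 reached the lowest of them. The rise was 1.65-fold in *Wnt9b*KO (log2 0.72 ± 0.17, edgeR adjusted p = 0.00566) and 1.58-fold in DKO (log2 0.66 ± 0.17, edgeR adjusted p = 0.0118), and both calls were lost without wt replicate 2. *Hk2* (hexokinase 2, the inducible isoform and a known HIF target) stood at 64.6 and 57 CPM in wt, 53.3, 53.6 and 53.4 in *Rspo2*KO, 84.6, 108 and 83.7 in *Wnt9b*KO, and 74.7, 84.6 and 71.1 in DKO. *Hk2* rose 1.51-fold in *Wnt9b*KO (log2 0.60 ± 0.13, edgeR adjusted p = 0.00271), but its 1.26-fold difference in DKO did not pass (log2 0.34 ± 0.13, edgeR adjusted p = 0.0597). The difference between DKO and *Wnt9b*KO in *Hk2* was not significant either (log2 -0.26, 95% interval -0.50 to -0.02, edgeR adjusted p = 0.813).

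*Gpi1* (glucose 6-phosphate isomerase) was at 167, 213 and 197 CPM in *Wnt9b*KO and 179, 190.5 and 194 in DKO, above the 96.7 to 119.5 CPM of *Rspo2*KO. Its 2 wt libraries were far apart, at 173 and 113 CPM. It exceeded *Rspo2*KO by 1.74-fold in *Wnt9b*KO and 1.70-fold in DKO (edgeR adjusted p = 0.0012 and 0.00218), and the difference from wt did not pass (adjusted p = 0.0541 and 0.0834). Of the phosphofructokinases, which catalyse the committed step, the liver-type *Pfkl* fell 1.32-fold in DKO (edgeR adjusted p = 0.0158), a call lost without wt replicate 1 or DKO replicate 1. *Pfkm*, *Pfkp*, the aldolases *Aldoa* and *Aldoc* and the isomerase *Tpi1* passed the test in none of the 7 comparisons. Their log2 fold changes against wt ran from -0.59 (*Aldoc* in DKO) to 0.30 (*Pfkp* in DKO), and *Aldoc* was at 1.33 to 3.07 CPM.

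The later, ATP-yielding steps held the largest change among the 34 genes. *Eno1* (enolase 1, ENSMUSG00000063524, chr4:150236721-150248879 on GRCm38), which forms phosphoenolpyruvate, stood at 871 and 791 CPM in wt and at 573, 721 and 687 in *Rspo2*KO. It stood at 282, 347 and 387 CPM in *Wnt9b*KO and at 276, 327 and 398 in DKO, so that every library of these genotypes lay below every library of the others. The fall was 2.45-fold in *Wnt9b*KO (log2 -1.29 ± 0.16, edgeR adjusted p = 7.46e-05) and 2.49-fold in DKO (log2 -1.32 ± 0.16, edgeR adjusted p = 7.64e-05), and both calls held in all 11 fits that left out 1 library. Against *Rspo2*KO, *Eno1* was 1.95-fold lower in *Wnt9b*KO and 1.98-fold lower in DKO (edgeR adjusted p = 0.000439 and 0.000452), whereas *Rspo2*KO differed from wt by -0.33 ± 0.16 on the log2 scale, which did not pass (adjusted p = 0.444). The neuronal enolase *Eno2* was at 1.58 to 4.90 CPM and passed in none of the comparisons.

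*Pkm* (pyruvate kinase, the last step, and the highest of the 34 genes in wt per kilobase of exon, at 760.2 CPM per kilobase) stood at 3707 and 3897 CPM in wt, 2689, 3502 and 3324 in *Rspo2*KO, 2233, 2524 and 2244 in *Wnt9b*KO, and 1974, 2295 and 2318 in DKO. The *Wnt9b*KO and DKO libraries all lay below those of the other genotypes. *Pkm* fell 1.63-fold in *Wnt9b*KO (log2 -0.70 ± 0.14, edgeR adjusted p = 0.0018) and 1.73-fold in DKO (log2 -0.79 ± 0.14, edgeR adjusted p = 0.00108). *Pgk1* (phosphoglycerate kinase, X-linked), which makes the first ATP of the pathway, moved the other way. It was at 95.8 and 167 CPM in wt, 163, 214 and 158 in *Rspo2*KO, 173, 224 and 222 in *Wnt9b*KO, and 168, 217 and 236 in DKO. The rise was 1.57-fold in both (log2 0.65 ± 0.22 in each, edgeR adjusted p = 0.0318 and 0.0358), but without wt replicate 1, the lowest library, the adjusted p was 0.376 and 0.406, and the calls were also lost without mutant replicate 2 or 3. Of the comparisons between libraries of like sex, DKO against wt is the one just given, and *Wnt9b*KO against *Rspo2*KO had a log2 difference of 0.21 in *Pgk1* (95% interval -0.19 to 0.61), which did not pass. *Pgam1*, the mutase between *Pgk1* and *Eno1*, was at 49 to 67.6 CPM in all libraries and passed in none of the comparisons.

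*Gapdh* (ENSMUSG00000057666, chr6:125161715-125166467, minus strand), the oxidative step and a common reference gene, stood at 438 and 496 CPM in wt, 439, 519 and 443 in *Rspo2*KO, 258, 348 and 307 in *Wnt9b*KO, and 273, 277 and 393 in DKO. The fall of 1.53-fold in *Wnt9b*KO (log2 -0.62 ± 0.16, edgeR adjusted p = 0.0107) and 1.49-fold in DKO (log2 -0.57 ± 0.16, edgeR adjusted p = 0.0195) was not called in every fit without 1 library: the first was lost without wt replicate 2, and the second without either wt library or DKO replicate 1 or 2. It also changed with the handling of a processed copy. The copy Gm13394 (chr2:28933610-28934609) differs from the *Gapdh* coding sequence at 1 of 999 aligned bases, A424C, counted from the first base of the longest annotated coding sequence with the *Gapdh* base first. Bases 394 to 453 are printed from the GENCODE transcripts to show this, with the differing base in capitals.
Gapdh: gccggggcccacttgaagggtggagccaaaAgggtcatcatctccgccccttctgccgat
Gm13394: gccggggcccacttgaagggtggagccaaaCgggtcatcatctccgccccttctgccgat
Gm13394 held 1 and 0 counts in wt and 0, 3 and 0 in *Rspo2*KO, but 1197, 755 and 1541 in *Wnt9b*KO and 644, 1206 and 82 in DKO. With the counts of the 78 annotated copies in the files added, a choice made after seeing the data, *Gapdh* stood at 488 and 553 CPM in wt and between 360.0 and 456 in *Wnt9b*KO and DKO. The difference from wt was then -0.29 ± 0.13 in *Wnt9b*KO and -0.36 ± 0.13 in DKO on the log2 scale and no longer passed (edgeR adjusted p = 0.106 and 0.0521). Against *Rspo2*KO it still passed in DKO (adjusted p = 0.0375) but not in *Wnt9b*KO (adjusted p = 0.0717).

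The copies of *Eno1* showed the same split between the genotypes. *Eno1b* held 0 to 2 counts in each wt and *Rspo2*KO library and 160 to 493 in each *Wnt9b*KO and DKO library, and the processed copy Gm4735 held 0 to 3 and 19 to 61 counts. Adding both to *Eno1* left 312, 360.3 and 405 CPM in *Wnt9b*KO and 286, 355 and 415 in DKO, all below the lowest library of the other genotypes. The fall remained called, at -1.21 ± 0.16 and -1.24 ± 0.16 on the log2 scale (edgeR adjusted p = 9.4e-05 and 8.73e-05). How reads that match a gene and its copy equally well were counted is not given in the sources used here. The sums for *Eno1* and *Gapdh* may therefore miss such reads. Over all members, 50-base words shared with another annotated gene made up 53.9% of *Pgk1*, 47.2% of *Bnip3*, 36.2% of *Pgam1*, 26% of *Eno1*, 25.8% of *Pkm*, 25.1% of *Gapdh* and 21% of *Ldhb*. The shares are taken over the words of all annotated transcripts of a gene, such as 4598 for *Gapdh*, whose coding sequence has 1077 bases. The share of the expressed transcript can be larger, and how far the counts of these 7 genes are uncertain was not measured. These 7 genes include 4 of the 8 genes that fell in *Wnt9b*KO, 1 of the 3 that rose and 2 that were not called.

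**Figure D3:**
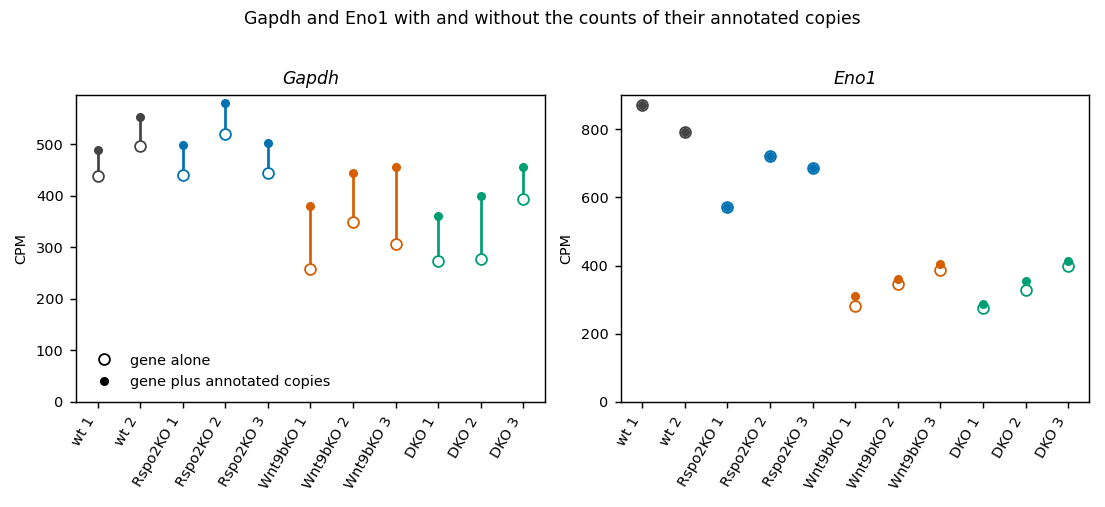
CPM (vertical axis, linear from 0) of *Gapdh* and *Eno1* in each of the 11 libraries, for the gene alone (open circles) and with the counts of its annotated copies added (filled circles). The lines between them are longest for *Gapdh* in *Wnt9b*KO and DKO, whereas *Eno1* with its copies stays at 415 CPM or less in these genotypes and at 573 CPM or more in the others.

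**Figure D4:**
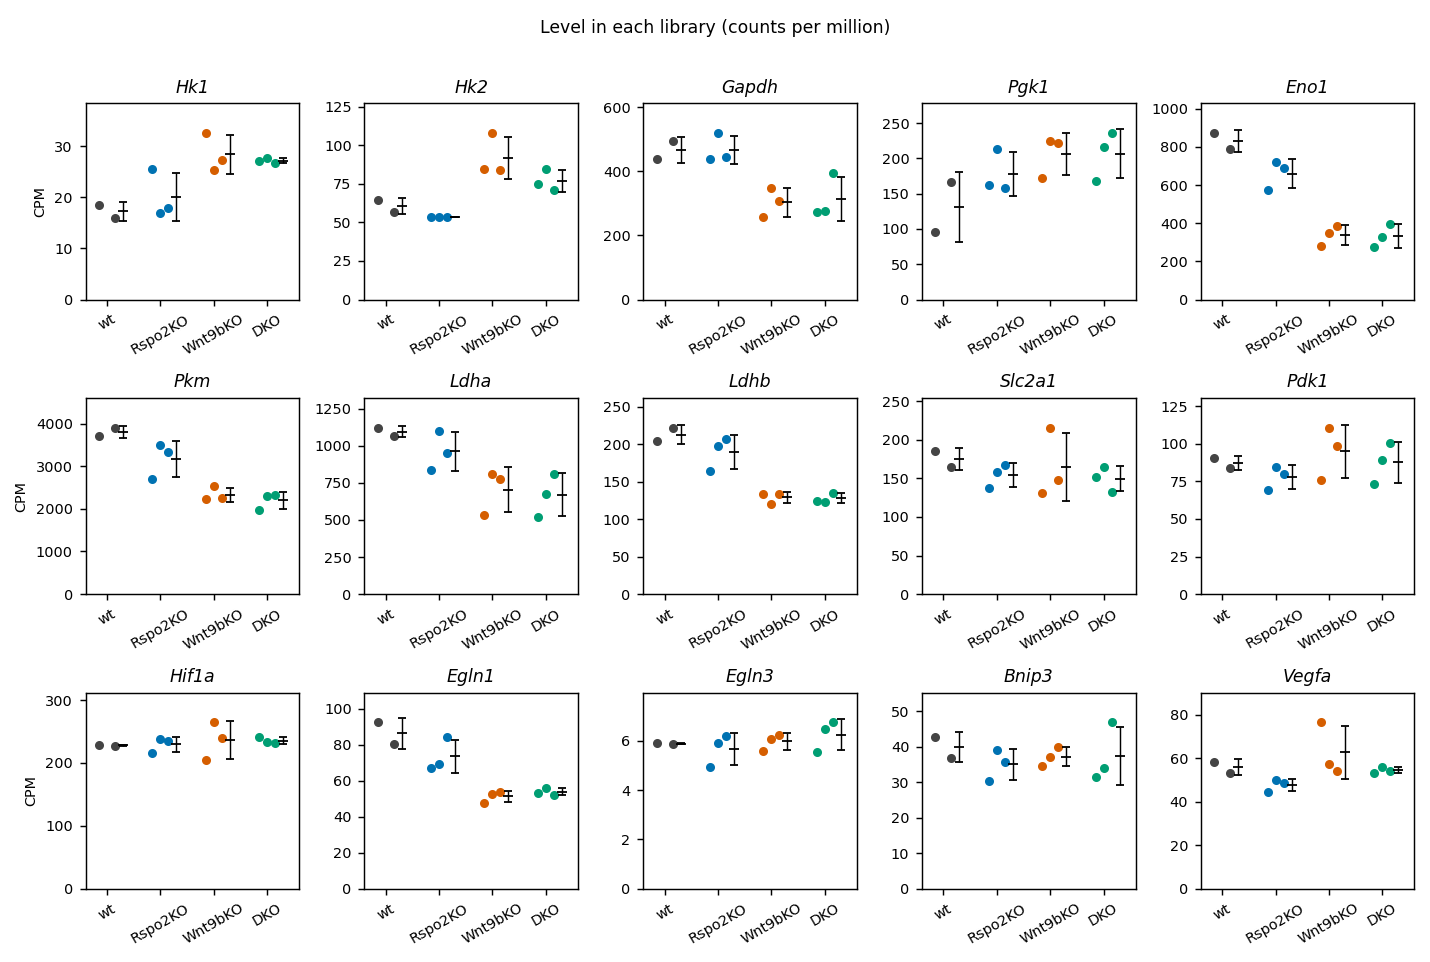
CPM (vertical axis, linear from 0) in each library (points, by genotype) for 15 of the 34 genes, with the group mean and SD beside the points (n = 2 for wt and n = 3 for each mutant). *Eno1*, *Pkm*, *Ldhb* and *Egln1* lie lower in every *Wnt9b*KO and DKO library than in any wt library, whereas *Hif1a* lies between 205 and 264 CPM in all 11.

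Both lactate dehydrogenase subunits fell. *Ldha* (the muscle-type subunit and a textbook HIF target) stood at 1120 and 1068 CPM in wt, 839, 1099 and 950 in *Rspo2*KO, 530.1, 806 and 775 in *Wnt9b*KO, and 521, 674 and 810.2 in DKO. All *Wnt9b*KO and DKO libraries lay below the lowest of the other genotypes, though DKO 3 and *Wnt9b*KO 2 only just. The fall was 1.55-fold in *Wnt9b*KO (log2 -0.64 ± 0.19, edgeR adjusted p = 0.0209) and 1.64-fold in DKO (log2 -0.71 ± 0.19, edgeR adjusted p = 0.0142), each lost in 3 of the 11 fits without 1 library, among them those without wt replicate 1 or 2. *Ldhb* (the heart-type subunit, not a classical HIF target) was at 204 and 222 CPM in wt, 164, 198 and 207 in *Rspo2*KO, 133, 121 and 134 in *Wnt9b*KO, and 124, 124 and 136 in DKO. It fell 1.65-fold in *Wnt9b*KO and 1.67-fold in DKO (log2 -0.72 ± 0.11 and -0.74 ± 0.11, edgeR adjusted p = 0.000356 and 0.000377), and these calls held in all 11 such fits. With GC content and transcript length corrected for, *Ldhb* still passed but fell less. Its log2 fold change was then -0.46 ± 0.09 and -0.55 ± 0.09 (edgeR adjusted p = 0.00177 and 0.000578). *Ldhb* is short, and the shortest 20% of genes had a median log2 fold change of -0.11 in *Wnt9b*KO and -0.12 in DKO. That of the longest 20% was 0.21 in each.

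The pyruvate dehydrogenase kinases, which inhibit the pyruvate dehydrogenase complex, did not fall with them. *Pdk1* (the isoform that HIF induces) stood at 90.2 and 83.6 CPM in wt, 68.9, 84.7 and 79.5 in *Rspo2*KO, 75.7, 110.5 and 98.7 in *Wnt9b*KO, and 73.2, 89 and 101 in DKO, with all groups overlapping. Its log2 fold change against wt was -0.16 ± 0.16, 0.13 ± 0.16 and 0.01 ± 0.16 in the 3 mutants in that order, and the interval in DKO ran from -0.33 to 0.35. *Pdk3*, X-linked like *Pgk1*, was 1.28-fold higher in *Wnt9b*KO than in *Rspo2*KO (edgeR adjusted p = 0.0401), a call kept in only 3 of 11 fits without 1 library.

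*Hif1a* itself (chr12:73901375-73947530) stood at 229 and 227 CPM in wt, 215, 238 and 235 in *Rspo2*KO, 205, 264 and 239 in *Wnt9b*KO, and 241, 233 and 231 in DKO. The groups overlapped throughout, and the 95% interval of the log2 fold change against wt was -0.23 to 0.25 in *Rspo2*KO, -0.19 to 0.29 in *Wnt9b*KO and -0.20 to 0.29 in DKO. *Egln1* (PHD2, the main oxygen-sensing hydroxylase that marks HIF1A for degradation) was lower in both genotypes that lack *Wnt9b* by label. It stood at 92.5 and 80.3 CPM in wt, 67.3, 69.4 and 84.2 in *Rspo2*KO, 47.8, 52.9 and 53.6 in *Wnt9b*KO, and 53.2, 56.1 and 52.4 in DKO. The fall was 1.68-fold in *Wnt9b*KO (log2 -0.75 ± 0.12, edgeR adjusted p = 0.000355) and 1.60-fold in DKO (log2 -0.68 ± 0.12, edgeR adjusted p = 0.000853), held in all 11 fits, and *Egln1* shared none of its 50-base words with another gene. *Egln3* (PHD3, itself induced by HIF) was at 5.89 and 5.86 CPM in wt, 4.94, 5.89 and 6.19 in *Rspo2*KO, 5.59, 6.08 and 6.24 in *Wnt9b*KO, and 5.52, 6.48 and 6.74 in DKO. The interval of its log2 fold change was -0.35 to 0.40 in *Wnt9b*KO and -0.29 to 0.46 in DKO.

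Of the 10 other HIF targets, 2 (20%) were called in *Wnt9b*KO and 1 (10%) in DKO, all lower, beside 32.8% and 27.5% of all genes tested, and without the libraries labelled *Wnt9b*KO 2 and DKO 3 each count was 1. *Bnip3* (a mitophagy receptor) stood at 42.9 and 36.9 CPM in wt, 30.4, 39 and 35.8 in *Rspo2*KO, 34.5, 37.3 and 39.9 in *Wnt9b*KO, and 31.4, 34 and 46.9 in DKO, and its log2 fold change was -0.10 ± 0.16 and -0.09 ± 0.16 in the latter 2. *Vegfa* (the angiogenic growth factor) stood at 58.4 and 53.3 CPM in wt, 44.5, 49.9 and 48.6 in *Rspo2*KO, 76.5, 57.4 and 54.3 in *Wnt9b*KO, and 53.4, 56.2 and 54.1 in DKO. Both genes overlapped between wt and each *Wnt9b* genotype, and *Vegfa* passed the test only for *Wnt9b*KO against *Rspo2*KO, 1.32-fold higher (edgeR adjusted p = 0.0256), a call lost without *Rspo2*KO replicate 1 or 3 or *Wnt9b*KO replicate 1.

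*Ndrg1* (a stress-responsive gene of differentiating cells) was at 5.18 and 4.95 CPM in wt, 4.42, 4.37 and 4.93 in *Rspo2*KO, 3.67, 2.68 and 2.88 in *Wnt9b*KO, and 3.35, 2.87 and 2.55 in DKO. It fell 1.64-fold in *Wnt9b*KO and 1.73-fold in DKO (log2 -0.71 ± 0.21 and -0.79 ± 0.21, edgeR adjusted p = 0.0164 and 0.0116), although both calls were lost without either wt library, and the first also without *Wnt9b*KO replicate 2 or 3. *Ankrd37*, which overlaps *Lrp2bp* over 16.5% of its 50-base words, fell 1.62-fold in *Wnt9b*KO (edgeR adjusted p = 0.028). This call was lost without either wt library or *Wnt9b*KO replicate 2 or 3, and once GC content and transcript length were corrected for (adjusted p = 0.11). The remaining targets *P4ha1*, *P4ha2* (collagen prolyl hydroxylases), *Adm* (adrenomedullin), *Ddit4* (an mTORC1 inhibitor), *Mxi1* (a MYC antagonist) and *Kdm3a* (a histone demethylase) passed in none of the 7 comparisons. Their log2 fold changes against wt ran from -0.26 to 0.16 in *Wnt9b*KO and DKO together, and *Adm* was under 1 CPM in every library.

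DKO differed from *Wnt9b*KO in none of the 34 genes (0.121% of all tested genes and 0.123% of those at 10 CPM or more were called, 2 members had an unadjusted p below 0.05, and DESeq2 called 0). The log2 differences ran from -0.26 (*Hk2*) to 0.33 (*Pfkp*), and for *Eno1* the 95% interval was -0.34 to 0.29. The interaction, which asks whether the effect of losing both genes differs from the sum of the single effects on the log2 scale, was also called for 0 members (0.0635% of all tested genes and 0.102% of those at 10 CPM or more, 0 members at an unadjusted p below 0.05, DESeq2 0). Against *Rspo2*KO, 12 of 34 members (35.3%) were called in *Wnt9b*KO, beside 26% of all tested genes and 33.8% of those at 10 CPM or more, with 6 higher (*Slc2a3*, *Hk1*, *Hk2*, *Gpi1*, *Pdk3*, *Vegfa*) and 6 lower (*Gapdh*, *Eno1*, *Pkm*, *Ldhb*, *Egln1*, *Ndrg1*). In DKO against *Rspo2*KO, 10 (29.4%) were called, beside 18.2% and 25.1%, with *Slc2a3*, *Hk2*, *Gpi1* and *Pdk3* higher and the same 6 genes lower. Over all tested genes, 12.5% were higher and 13.5% lower in *Wnt9b*KO than in *Rspo2*KO, and 9.15% and 9.07% in DKO. Without *Rspo2*KO replicate 3 the first count of members was 7. Without *Rspo2*KO replicate 2 or DKO replicate 2 the second was 5 or 6, and 10% or 10.9% of all tested genes were called. Without the libraries labelled *Wnt9b*KO 2 and DKO 3 the counts were 11 and 9, the latter beside 16.7% of all tested genes.

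The neighbouring pathways were read from 5 lists. Of 13 genes of the pyruvate dehydrogenase complex and pyruvate entry, 9 were called in *Wnt9b*KO (2 higher and 7 lower) and 7 in DKO (2 higher and 5 lower), a share of 69.2% and 53.8% beside 32.8% and 27.5% of all genes tested. Among genes with a mean of at least 10 CPM, a level that most of this list passes, the shares were 43.5% and 37.9%. Without the libraries labelled *Wnt9b*KO 2 and DKO 3 the counts of this list were 6 and 5 (46.2% and 38.5%), beside 29.7% and 25.6% of all genes tested. *Pdhb* (a subunit of the decarboxylase of the complex) was at 130.1 and 118 CPM in wt and between 55.5 and 82.9 in *Wnt9b*KO and DKO, and fell by 0.87 and 0.72 on the log2 scale (edgeR adjusted p = 0.000618 and 0.00268). *Pdp1* (the phosphatase that activates the complex) fell by 0.71 and 0.34 (edgeR adjusted p = 0.000548 and 0.0464). *Dld* (its lipoamide dehydrogenase) and *Pdk2* (a kinase that inhibits it) rose in both genotypes. *Dld* rose by 0.60 ± 0.13 in *Wnt9b*KO and 0.75 ± 0.13 in DKO on the log2 scale (edgeR adjusted p = 0.00371 and 0.00117). *Pdk2* rose by 1.61 ± 0.28 in each (edgeR adjusted p = 0.000695 and 0.000863), from 1.34 and 1.63 CPM in wt to between 4.26 and 5.05 CPM.

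Of 10 pentose phosphate pathway genes, 4 (40%) were called in *Wnt9b*KO and 3 (30%) in DKO, all lower. Of all genes tested, 32.8% and 27.5% were called in either direction, and 16% and 13.1% were called lower. The counts of this list were 4 and 3 without the libraries labelled *Wnt9b*KO 2 and DKO 3. *Pgd* (6-phosphogluconate dehydrogenase, an NADPH-producing step) stood at 172 and 140.1 CPM in wt, 103, 105 and 119 in *Rspo2*KO, 48.5, 42.3 and 62.4 in *Wnt9b*KO, and 45.1, 46.1 and 62.6 in DKO. It fell by 1.61 on the log2 scale in both (SE 0.17, edgeR adjusted p = 1.69e-05 and 1.92e-05), and *Pgls*, the lactonase before it, fell by 0.64 and 0.55 (edgeR adjusted p = 0.000845 and 0.00308). Of 19 tested glycolysis paralogs and regulators, 6 (31.6%) and 5 (26.3%) were called, near the share of all genes called in either direction, and 4 and 5 without those libraries. *Pklr* (the liver and red-cell pyruvate kinase) fell by 1.39 and 1.45 (edgeR adjusted p = 0.000237 and 0.000215), from 7.77 and 7.37 CPM in wt to between 2.46 and 3.64 CPM, in the genotypes where the erythroid markers were also lower.

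Of 15 other HIF subunits and oxygen-sensing genes, 8 (53.3%) were called in *Wnt9b*KO and 6 (40%) in DKO, beside 32.8% and 27.5% of all genes tested. Among genes with a mean of at least 10 CPM, a level that most of this list passes, the shares were 43.5% and 37.9%. The counts were 7 and 7 without the libraries labelled *Wnt9b*KO 2 and DKO 3. *Arnt2* (a neural partner of the HIF alpha subunits) rose from 43.3 and 42 CPM in wt to between 93.7 and 98 in *Wnt9b*KO and between 87.2 and 94.9 in DKO (log2 1.17 ± 0.14 and 1.10 ± 0.14, edgeR adjusted p = 6.01e-05 and 0.000112), in the genotypes where the forebrain and eye markers were also higher. *Elob* (elongin B of the ubiquitin ligase that removes HIF1A) fell by 0.98 and 0.74 (edgeR adjusted p = 0.000134 and 0.00117). Of 43 further HIF targets, 13 were called in *Wnt9b*KO (8 higher and 5 lower, 30.2%) and 8 in DKO (6 higher and 2 lower, 18.6%), again near or below the share of all genes, and 12 and 10 without those libraries. *Jmjd6* (a JmjC-domain oxygenase) fell by 0.80 and 0.79 (edgeR adjusted p = 0.000143 and 0.000168). *Bhlhe40* (a transcriptional repressor that HIF induces) rose by 2.82 and 2.37 on the log2 scale (edgeR adjusted p = 0.000285 and 0.00148), from 0.268 and 0.423 CPM in wt to at most 2.98 CPM, a fitted value that rests on few counts in wt.

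**Figure D5:**
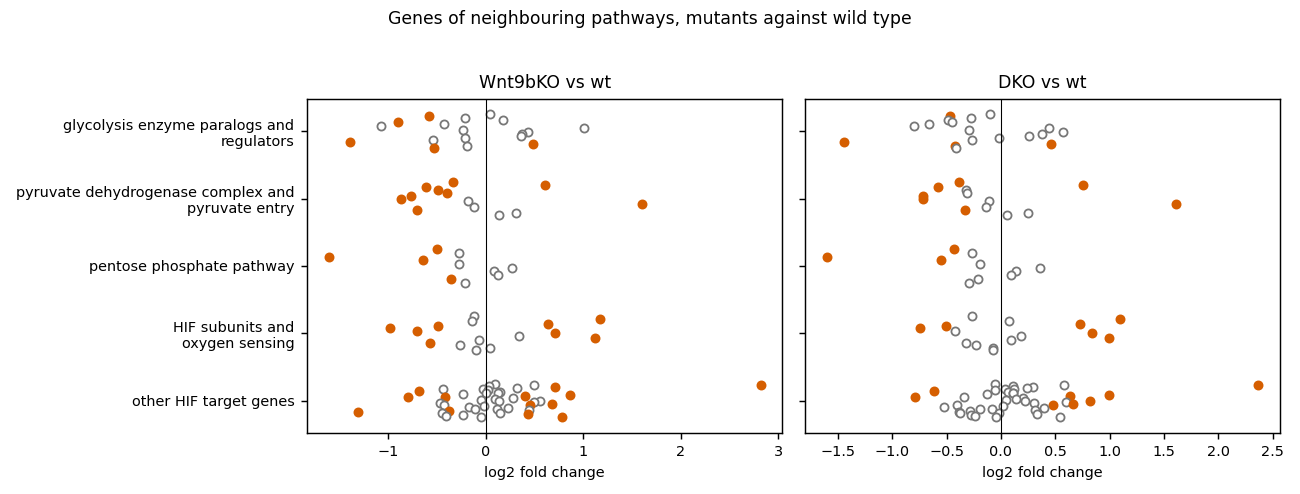
Fitted log2 fold change against wt (horizontal axis) of each tested gene in the 5 neighbouring lists (rows), with filled points for adjusted p below 0.05. *Eno1b* is left out because it was at 0 to 2 counts in wt. The pentose phosphate genes that were called lie left of 0 in both panels, and called genes of the other lists lie on both sides.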

How the data were processed

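Total RNA of the explants was sequenced as single-end 50-base reads. According to the study's methods and the submitters' processing notes, the authors trimmed reads with Cutadapt, aligned them to GRCm38 with STAR and deposited raw counts per Ensembl gene from HTSeq-Count, 1 file per library. The strand setting and annotation release are not given in the sources used here. Each library held 11136166 to 18017344 counts, which limits the precision for genes at few counts.

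The 34 genes, the neighbouring lists and the marker lists were chosen with earlier results of these data known. Genes were named and annotated with GENCODE M21. Counts were tested with edgeR 4.0.16 in R 4.3.3 (quasi-likelihood test, TMM factors, filterByExpr, genotype means, all 11 libraries) and p-values were adjusted by Benjamini-Hochberg over 17317 genes. CPM used TMM-scaled library sizes, and ± is the SE of a log2 fold change or, in plots, the SD. Libraries were grouped by their genotype labels, and no files were identical. The script was tested on simulated data.

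Full values are given for *Hif1a*, *Slc2a1*, *Hk2*, *Gapdh*, *Pgk1*, *Ldha*, *Pdk1*, *Bnip3*, *Vegfa* and *Egln3*, for any of the 34 called in DKO against *Wnt9b*KO or in the interaction, and for the 4 called with the largest change against wt in each mutant. Genes of neighbouring lists are named where their p is among the 2 smallest of the list and called. Words of 50 bases were matched between annotated transcripts to find copies, and a copy shares at least 100. The alternatives were RLE, upper-quartile or no scaling factors, DESeq2 1.42.0, other count filters, only the groups compared, a replicate block, an offset for GC content and length, fold thresholds and left-out libraries. Adding the counts of copies, and counting the neighbouring lists and roles without the libraries labelled *Wnt9b*KO 2 and DKO 3, were chosen after seeing the data.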

Additional observations from a re-analysis of the deposited data

How the results depend on the processing

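Of 97 counts of called genes under the alternatives other than leaving out 1 library, 92 were within 1.5 times the reported count. The exceptions were *Rspo2*KO against wt with no filter on low counts (1 gene, *Slc2a3*, instead of 0), DKO against *Rspo2*KO with a change over 1.5-fold required (4 genes at an unadjusted p below 0.05 and 3 at an adjusted p below 0.05, instead of 10), and *Wnt9b*KO against *Rspo2*KO with the same requirements (5 and 5, instead of 12), where the stricter fold rule by construction leaves fewer genes. Leaving out 1 library at a time gave 6 to 13 genes for *Wnt9b*KO against wt (6 without wt replicate 2), 6 to 13 for DKO against wt (6 without either wt replicate), 5 to 12 for DKO against *Rspo2*KO (5 without *Rspo2*KO replicate 2, 6 without DKO replicate 2), 7 to 12 for *Wnt9b*KO against *Rspo2*KO (7 without *Rspo2*KO replicate 3), and 0 for the other 3 comparisons. In the comparisons of *Wnt9b*KO and of DKO with wt, the share of all tested genes called also changed between these fits. The cause of these differences was not tested, and a fit with 1 wt library assumes that it varies like the other groups. Of 602 single-gene values, 57 lost the call and 0 changed sign. Against wt, *Egln1*, *Eno1*, *Hk2*, *Ldhb* and *Pkm* passed under all alternatives and left-out libraries in *Wnt9b*KO, and *Egln1*, *Eno1*, *Ldhb* and *Pkm* in DKO. Between libraries with the same replicate number, the deviations from the group means had correlations between -0.11 and 0.24. Those between mutant groups were all positive, from 0.04 to 0.24. Pairs with unlike numbers were not compared, so these values do not settle whether such libraries belong together. With the replicate block, 10 genes were called in *Wnt9b*KO and 11 in DKO against wt, 12 in DKO and 13 in *Wnt9b*KO against *Rspo2*KO, and 0 in the other 3 comparisons. Genes at few counts, such as *Adm* at 3 to 17 counts a library, could show only large changes at this depth.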
